A study of Mus musculus with 14 samples.

Results

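The 47 genes described here encode the machinery that copies DNA in S phase, together with genes that supply its nucleotides and start the phase. They were chosen by name: the 6 subunits of the MCM helicase (Mcm2 to Mcm7), 4 genes that license origins (Orc1, Orc6, Cdc6, Cdt1), 8 that fire them (Mcm10, Cdc45, Gins1 to Gins4, Cdc7, Dbf4), 5 of the sliding clamp and its loader (Pcna, Rfc2 to Rfc5), 7 of the polymerases and primase (Pola1, Pola2, Prim1, Prim2, Pold1, Pole, Pole2), 4 for Okazaki fragments and single-stranded DNA (Fen1, Lig1, Rpa1, Rpa2), 6 for nucleotide supply and uracil removal (Rrm1, Rrm2, Tyms, Tk1, Dut, Ung), 3 for copying chromatin (Uhrf1, Chaf1a, Chaf1b) and 4 regulators of the step from G1 to S phase (E2f1, E2f8, Ccne1, Ccne2). The 3 deposited tables together list 19959 genes, and each of the 47 stands in all 3 tables, of 15319, 19825 and 15216 genes.

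RNA was sequenced from CD8+ T cells of mouse tumors of E.G7, an ovalbumin-expressing line derived from the EL4 lymphoma, in 14 libraries that form 7 groups of 2. In the first experiment, Bcl6+, TIM-3+ and DN tumor-infiltrating lymphocytes (TILs) were sorted from subcutaneous tumors of Bcl6-RFP mice at day 21; all 3 groups carry the Bcl6-RFP reporter allele, and what DN stands for is left unsaid in the labels. In the other experiments, Prdm1-overexpressing OT-I cells were set against a control (Prdm1neg), and Bcl6-overexpressing OT-I cells against a control (Bcl6neg); OT-I cells carry a transgenic T cell receptor for ovalbumin. The overexpressing and control cells were transferred together and sorted from the tumors about day 8 after transfer. Neither the age and sex of the mice, nor the vector of the control cells, nor whether libraries came from separate animals is given in the labels, so p-values measure only the spread between these libraries, which may be technical.

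Replication is prepared in G1, when the origin recognition complex, Cdc6 and Cdt1 load MCM rings onto DNA. On entry into S phase the kinases Cdc7-Dbf4 and cyclin E-Cdk2 turn these rings, with Cdc45 and GINS, into active helicases; primase and polymerase alpha begin each strand, and polymerases delta and epsilon, held on DNA by the PCNA ring, extend it. Many of these genes are known targets of E2F transcription factors and are transcribed in cycling cells, and in CD8+ T cells their mRNAs are known to be high during clonal expansion and low in resting cells.

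Library depth ranged from 18309162 to 22322079 counts, and each member had between 73 and 24007 counts per library, so that none was near the detection limit. The sort and the Bcl6 construct were visible in their own genes, and the Prdm1 construct was less clearly so. Bcl6 was at 59.8 and 56.9 FPKM in Bcl6+, 2.16 and 2.65 FPKM in TIM-3+ and 12.7 and 13.4 FPKM in DN TILs, where FPKM is the deposited count scaled by gene length and library size. Havcr2, which encodes TIM-3, was at 20.2 and 11.5 FPKM in Bcl6+, 469 and 489 FPKM in TIM-3+ and 69.8 and 61.5 FPKM in DN TILs. Bcl6 had 13.9 and 9.95 FPKM in Bcl6-overexpressing cells, against 0.573 and 0.53 FPKM in their control cells. Prdm1 had 25.2 and 33.3 FPKM in Prdm1-overexpressing cells, against 19.4 and 16.1 FPKM in their control cells. That difference missed the threshold in the edgeR test (log2 fold change 0.81 ± 0.19, adjusted p = 0.0923). Bcl6 was at 1.28 ± 0.29 on the log2 scale in the same Prdm1 comparison (adjusted p = 0.0886). All 7 CD8 T cell markers (Cd8a, Cd8b1, Cd3d, Cd3e, Cd3g, Lck, Cd2) were present in every library.

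Promoter sequence is shown because E2F control is what many of these genes are known to share, and the rule that chose them used no sequence. Promoters from RefSeq (build GRCm38.p6, 250 bases before to 50 after a start) were at hand for 39 of the 47 members. An E2F motif, searched as TTTCCCGC, TTTGGCGC, TTTCGCGC or TTTGCCGC on either strand, lay in 14 of these 39 (35.9%), against 704 of 27025 genes with a promoter (2.61%) and 393 of 7921 genes tested in the TILs (4.96%). In the lists of other genes it lay in 7 of 17 promoters of E2F, pocket protein and Cdk genes (41.2%), 7 of 24 of other replisome and origin genes (29.2%), 2 of 8 of other chromatin copying genes, 2 of 10 of fork protection and checkpoint genes, 1 of 23 of mitosis genes (4.35%) and 0 of 17 of other nucleotide synthesis genes. A CCAAT box was in 53.8% of the members' promoters and in 41.1% of all. These shares are descriptions of letters, not of bound sites. The 4 windows printed here, 190 bases before to 40 after the start, belong to the most abundant members described in every library whose promoter holds the motif; its letters are in capitals, and in Mcm6 and Mcm5 a motif on each strand overlaps the other in 1 run.
Mcm6, chr1:128359666-128359895, minus strand: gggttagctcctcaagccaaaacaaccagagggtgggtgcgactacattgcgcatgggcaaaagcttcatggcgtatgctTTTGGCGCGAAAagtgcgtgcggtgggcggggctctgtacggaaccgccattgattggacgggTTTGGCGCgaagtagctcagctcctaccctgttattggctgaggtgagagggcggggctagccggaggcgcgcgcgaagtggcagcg
Mcm5, chr8:75109319-75109548, plus strand: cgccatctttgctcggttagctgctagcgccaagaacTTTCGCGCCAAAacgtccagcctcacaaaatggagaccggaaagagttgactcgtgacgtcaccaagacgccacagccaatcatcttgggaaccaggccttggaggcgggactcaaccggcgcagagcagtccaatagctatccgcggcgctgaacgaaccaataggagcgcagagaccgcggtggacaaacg
Uhrf1, chr17:56304123-56304352, plus strand: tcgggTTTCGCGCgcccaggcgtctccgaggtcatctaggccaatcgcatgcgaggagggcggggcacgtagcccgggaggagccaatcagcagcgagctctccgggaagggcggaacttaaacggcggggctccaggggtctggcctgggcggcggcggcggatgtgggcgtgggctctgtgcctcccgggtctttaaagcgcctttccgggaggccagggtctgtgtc
Lig1, chr7:13278636-13278865, plus strand: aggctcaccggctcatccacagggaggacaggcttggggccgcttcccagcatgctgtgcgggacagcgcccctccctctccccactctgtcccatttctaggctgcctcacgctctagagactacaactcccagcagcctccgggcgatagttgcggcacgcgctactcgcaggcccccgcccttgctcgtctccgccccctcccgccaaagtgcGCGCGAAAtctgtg
Mcm6 holds 3 matches, Mcm5 holds 2, and Uhrf1 and Lig1 hold 1 each, that of Lig1 after the start. Uhrf1 and Lig1 have further annotated starts whose promoters hold none. Rfc3, which moved against the other members (described with the clamp loader), also has 2 matches, both near its start.

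In the TILs, the replication genes were lowest in Bcl6+, highest in TIM-3+ and between the other groups in DN cells. Summed over the 47 members, FPKM was 847 and 878 in Bcl6+, 1767 and 1788 in TIM-3+ and 1009 and 1028 in DN libraries, so the 3 groups did not overlap. Between Bcl6+ and TIM-3+ TILs, 41 of 47 members were lower and 1 was higher in Bcl6+ (edgeR quasi-likelihood test, Benjamini-Hochberg adjusted p under 0.05 over all genes tested), where 19.6% of all 9748 genes tested were lower and 19.1% higher. Log2 fold changes are given ± SE throughout, also where they stand in brackets. The median log2 fold change of the members was -0.98, against 0.01 over all genes tested, and 22 members differed at least 2-fold. Between TIM-3+ and DN TILs, 38 members were higher and 1 was lower in TIM-3+ (median 0.77; 14.9% and 13.2% of all genes). Between Bcl6+ and DN TILs, 1 was higher and 8 were lower in Bcl6+ (median -0.23; 6.49% and 7.69% of all genes), and 38 did not pass the test. The 3 comparisons share libraries, so their counts are not independent of each other.

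The mean of DN cells lay between those of Bcl6+ and TIM-3+ cells in 42 members (89.4%) and in 5076 of all 9748 genes (52.1%); it lay there in rising order from Bcl6+ to TIM-3+ in 41 members (87.2%) and in 2773 genes (28.4%). In these bulk libraries, fewer cells in S phase and less replication mRNA per cell cannot be told apart. The sum of the macrophage and monocyte markers moved opposite to the members: the 6 markers, none of them at 0, summed to 176 and 155 FPKM in Bcl6+, 43.3 and 31.8 FPKM in TIM-3+ and 95.5 and 95.2 FPKM in DN libraries. Of the 5 tested in TIM-3+ against DN TILs, 3 were lower. C1qa (log2 fold change 0.42 ± 0.42) and C1qb (log2 fold change -0.35 ± 0.41) were not called there. The 4 measured thymocyte or lymphoma markers summed to 20.4 and 18.4 FPKM in Bcl6+, 12.8 and 14.3 FPKM in TIM-3+ and 20.9 and 16.97 FPKM in DN libraries. The 7 CD8 T cell markers summed to 2243 and 2238 FPKM in Bcl6+, 3524 and 3456 FPKM in TIM-3+ and 2592 and 2551 FPKM in DN libraries. The 5 erythroid markers summed to 54.6 and 58.9 FPKM in Bcl6+, 25.4 and 31.6 FPKM in TIM-3+ and 91.5 and 88.05 FPKM in DN libraries. The part of these markers in the result was not tested. Scaling libraries by length-scaled totals (TPM scaling) raised the median of all genes in Bcl6+ against TIM-3+ to 0.28 and turned the calls over all genes to 3566 higher and 1104 lower, from 1857 and 1907; with it, 35 members were lower and 2 higher (Rfc3 and Ung).

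**Figure D1:**
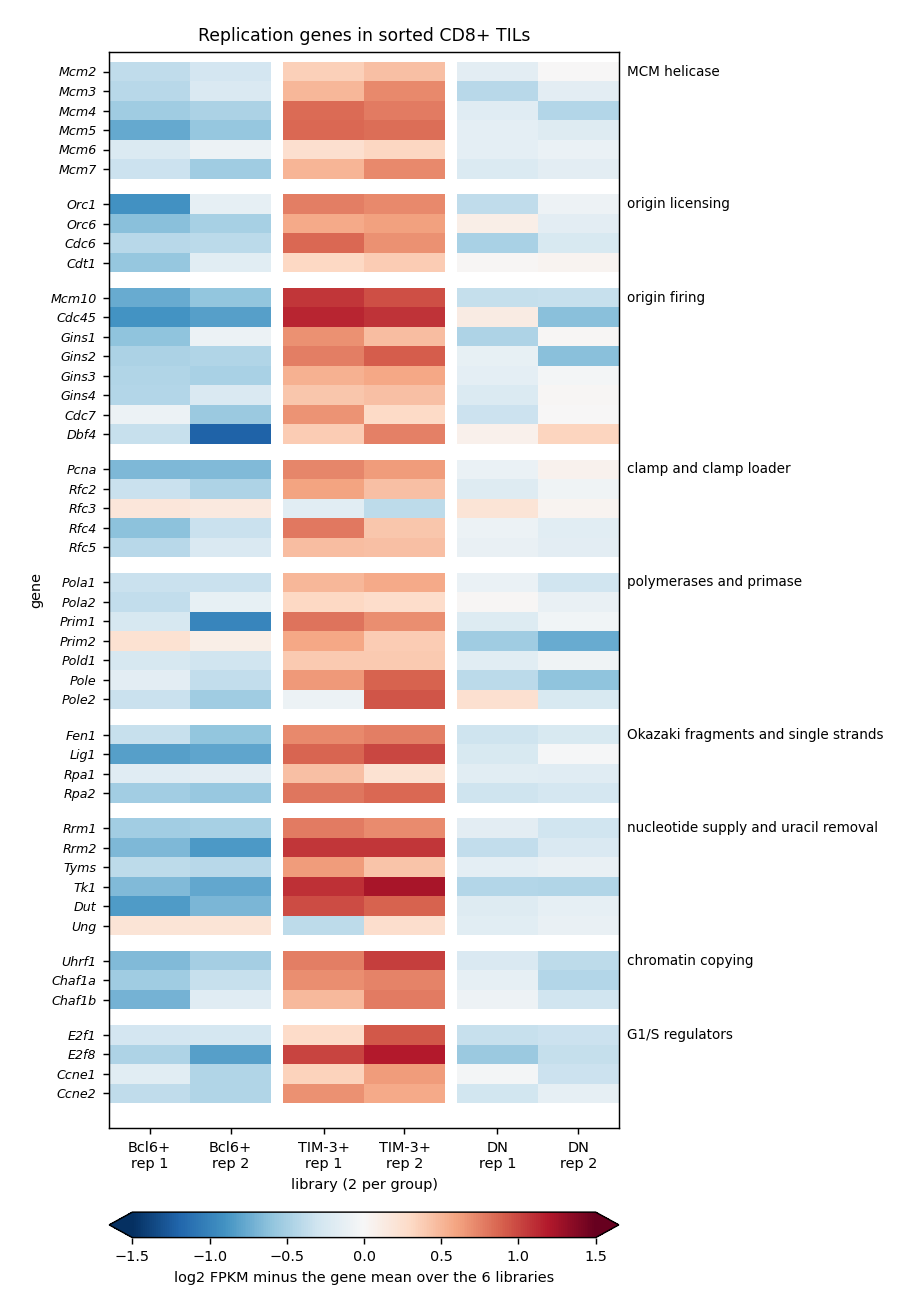
Level of each of the 47 replication genes in the 6 TIL libraries, as log2 FPKM minus the gene's mean over the 6 libraries; rows are genes grouped by role, columns are libraries (Bcl6+, TIM-3+, DN). The TIM-3+ columns are above the row mean for most genes and the Bcl6+ columns below it; Rfc3, Prim2 and Ung do not follow.

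All 6 MCM subunits were lower in Bcl6+ than in TIM-3+ TILs, with a median log2 fold change of -0.93, and all 6 rose in TIM-3+ against DN TILs (median 0.80). Mcm5 had 29.03 and 32.8 FPKM in Bcl6+, 89.1 and 87.9 FPKM in TIM-3+ and 44.4 and 42.98 FPKM in DN TILs. The log2 fold change of Mcm5 was -1.46 ± 0.08 (adjusted p = 1.13e-08) in Bcl6+ against TIM-3+ and -0.49 ± 0.08 (adjusted p = 0.00118) in Bcl6+ against DN. Mcm5 was thus ordered Bcl6+, DN, TIM-3+ with no overlap, and it was the 1 MCM subunit called between Bcl6+ and DN cells. Mcm6 had 125 and 137 FPKM in Bcl6+, 173 and 182 FPKM in TIM-3+ and 131 and 136 FPKM in DN TILs. Mcm6 is the most abundant subunit at the mRNA level in every group, and its TIM-3+ values were the highest, while Bcl6+ and DN values overlapped. It changed least of the 6 (-0.38 ± 0.06, adjusted p = 0.000201, Bcl6+ against TIM-3+), and the call was lost with TPM scaling (-0.11, adjusted p = 0.139). Mcm4 had 46.4 and 48.5 FPKM in Bcl6+, 122 and 116 FPKM in TIM-3+ and 59.3 and 49.9 FPKM in DN TILs. Mcm4 was higher in both TIM-3+ libraries than in the other 4, and Bcl6+ and DN differed by -0.19 ± 0.09 on the log2 scale (adjusted p = 0.199). Although the ring holds 1 copy of each subunit, the mRNA of its highest subunit (Mcm6) stood at 4.95, 4.03 and 4.22 times that of its lowest (Mcm2) in Bcl6+, TIM-3+ and DN TILs, by mean FPKM.

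The 4 licensing genes were all lower in Bcl6+ than in TIM-3+ TILs (median -1.11), and 3 of 4 rose in TIM-3+ against DN TILs. Orc6 had 10.5 and 11.5 FPKM in Bcl6+, 23.98 and 24.9 FPKM in TIM-3+ and 17.5 and 14.5 FPKM in DN TILs. Orc6, the smallest subunit of the origin recognition complex, was lowest in Bcl6+, intermediate in DN and highest in TIM-3+ libraries, without overlap. Its log2 fold change was -1.09 ± 0.16 (adjusted p = 0.000118) against TIM-3+ and -0.53 ± 0.16 (adjusted p = 0.047) against DN; the call against DN was lost without any 1 of the 4 libraries of Bcl6+ and DN cells (log2 fold change -0.66 to -0.38, adjusted p 0.0707 to 0.351). Orc1, the largest subunit, had the largest change of the class, -1.15 ± 0.33 on the log2 scale (adjusted p = 0.0127) in Bcl6+ against TIM-3+. Orc1 had 1.62 and 2.78 FPKM in Bcl6+, 5.195 and 5.03 FPKM in TIM-3+ and 2.33 and 2.88 FPKM in DN TILs. The Bcl6+ replicates of Orc1 lay far apart, and its call was lost without replicate 1 (log2 fold change -0.82, adjusted p = 0.0862). Cdc6 had 6.93 and 7.01 FPKM in Bcl6+, 16.9 and 14.96 FPKM in TIM-3+ and 6.603 and 7.85 FPKM in DN TILs. Cdc6, the ATPase that helps load MCM rings, was at like levels in Bcl6+ and DN cells, with overlapping values, and higher in both TIM-3+ libraries (1.09 ± 0.15, adjusted p = 9e-05, TIM-3+ against DN). Cdt1 had 10.1 and 13.4 FPKM in Bcl6+, 18.7 and 19.6 FPKM in TIM-3+ and 15.3 and 15.5 FPKM in DN TILs. Cdt1, the loading partner of Cdc6, changed least (-0.64 ± 0.16, adjusted p = 0.00651, Bcl6+ against TIM-3+), and the call was lost without Bcl6+ replicate 1 (log2 fold change -0.45, adjusted p = 0.0538). In TIM-3+ against DN TILs the calls of Orc1 and Orc6 did not survive the loss of single libraries (log2 fold change 0.79 to 1.08, adjusted p 0.109 to 0.262 for Orc1 and log2 fold change 0.43 to 0.60, adjusted p 0.0506 to 0.176 for Orc6); both stayed above 0.

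Of the 8 origin-firing genes, 7 were lower in Bcl6+ than in TIM-3+ TILs, with a median of -1.10; Gins1 missed the threshold (-0.84 ± 0.38, adjusted p = 0.0972). Cdc45, which couples GINS to the MCM ring, had the largest change of all 47 members. Cdc45 had 4.42 and 4.67 FPKM in Bcl6+, 18.2 and 17.5 FPKM in TIM-3+ and 8.97 and 5.35 FPKM in DN TILs. Its log2 fold change in Bcl6+ against TIM-3+ was -1.91 ± 0.23 (adjusted p = 1.43e-05). Both TIM-3+ libraries were highest, and the DN libraries, which differed from each other, stood above both Bcl6+ libraries; without DN replicate 2 the Bcl6+ against DN difference was called (log2 fold change -0.97, adjusted p = 0.0153). Mcm10, a factor for helicase activation, followed with a log2 fold change of -1.63 ± 0.18 (adjusted p = 6.91e-06). Gins4 had 28.9 and 33.5 FPKM in Bcl6+, 52.4 and 53.7 FPKM in TIM-3+ and 33.7 and 39.6 FPKM in DN TILs. Gins4 had the highest mRNA level of the 4 GINS subunits in every TIL group and the smallest change of the class (-0.70 ± 0.15, adjusted p = 0.00178). Gins2 had 2.33 and 2.36 FPKM in Bcl6+, 5.51 and 6.07 FPKM in TIM-3+ and 2.96 and 2.09 FPKM in DN TILs. Gins2 changed by -1.24 ± 0.28 on the log2 scale (adjusted p = 0.00266), and its Bcl6+ and DN values overlapped. Cdc7 had 9.21 and 6.66 FPKM in Bcl6+, 15.6 and 12.1 FPKM in TIM-3+ and 7.82 and 9.82 FPKM in DN TILs. The Cdc7 kinase had a log2 fold change of -0.74 ± 0.20 (adjusted p = 0.00935) in Bcl6+ against TIM-3+, a call lost without Bcl6+ replicate 2 or TIM-3+ replicate 1 (log2 fold change -0.55 to -0.52, adjusted p 0.0837 to 0.0873). Dbf4, its activating subunit, was lower in Bcl6+ than in both TIM-3+ (-1.23 ± 0.28, adjusted p = 0.0034) and DN cells (-0.91 ± 0.28, adjusted p = 0.0472), but the call against DN was lost on leaving out Bcl6+ replicate 2 or either DN library (log2 fold change -1.02 to -0.54, adjusted p 0.132 to 0.279). The TIM-3+ against DN calls of Gins2, Gins3, Gins4 and Cdc7 were each lost without 1 or more of the 4 libraries, with log2 fold changes between 0.38 and 0.91.

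The clamp and its loader split. Pcna had 48.7 and 49.03 FPKM in Bcl6+, 129 and 121 FPKM in TIM-3+ and 72.7 and 81.5 FPKM in DN TILs. Pcna, the sliding clamp, had a log2 fold change of -1.30 ± 0.09 (adjusted p = 4.49e-08) in Bcl6+ against TIM-3+, -0.64 ± 0.09 (adjusted p = 0.000153) in Bcl6+ against DN and 0.65 ± 0.09 (adjusted p = 5.89e-05) in TIM-3+ against DN. Its 3 groups did not overlap. Rfc2, Rfc4 and Rfc5 also fell, by 0.86, 1.02 and 0.71 on the log2 scale, in Bcl6+ against TIM-3+. Rfc2 shares up to 952 exon bases with Lat2 on the other strand, which fell by 2.26 in the same comparison, and Rfc5 shares up to 499 with Wsb2, which fell by 0.92; the sources used here do not say whether counting used strand. Rfc4 lost its TIM-3+ against DN call without either DN library or TIM-3+ replicate 1 (log2 fold change 0.50 to 0.74, adjusted p 0.0818 to 0.16). Rfc3, a small subunit of the same loader, went the other way. Rfc3 had 28.04 and 27.5 FPKM in Bcl6+, 21.9997 and 18.8 FPKM in TIM-3+ and 28.5 and 25.5 FPKM in DN TILs. Rfc3 was higher in Bcl6+ than in TIM-3+ TILs (0.50 ± 0.12, adjusted p = 0.00481) and lower in TIM-3+ than in DN TILs (-0.45 ± 0.12, adjusted p = 0.0134), and Bcl6+ values lay within the DN range. Without TIM-3+ replicate 2 both calls were lost (log2 fold change 0.39, adjusted p = 0.0516; log2 fold change -0.34, adjusted p = 0.115), and the second was also lost without DN replicate 1 (log2 fold change -0.36, adjusted p = 0.145). Rfc3 lies at chr5:151642756-151651242 (mm10, GENCODE M21) and overlaps no other counted gene. Pcna has the annotated pseudogenes Pcna-ps1 and Pcna-ps2, with which its reads may be shared.

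Among the polymerases and primase, 5 of 7 genes were lower in Bcl6+ than in TIM-3+ TILs (median -0.80); Prim2 and Pole2 did not pass. The 2 primase subunits differed in pattern. Prim1 had 10.1 and 6.04 FPKM in Bcl6+, 21.1 and 19.5 FPKM in TIM-3+ and 10.5 and 11.6 FPKM in DN TILs. Prim1, the catalytic subunit, had a log2 fold change of -1.27 ± 0.20 (adjusted p = 0.00021) in Bcl6+ against TIM-3+, the largest change of the class, with TIM-3+ values above all others. Without Bcl6+ replicate 1 it was also lower in Bcl6+ than in DN cells (log2 fold change -0.86, adjusted p = 0.00747). Prim2 had 7.46 and 6.86 FPKM in Bcl6+, 9.54 and 8.32 FPKM in TIM-3+ and 4.42 and 3.78 FPKM in DN TILs. Prim2, the large subunit, was lowest in DN cells: it was higher in Bcl6+ than in DN (0.82 ± 0.17, adjusted p = 0.00437) and in TIM-3+ than in DN (1.08 ± 0.17, adjusted p = 0.000288), while Bcl6+ and TIM-3+ differed by -0.26 ± 0.17 on the log2 scale (adjusted p = 0.241). It was the only member called higher in Bcl6+ against DN cells, a call lost without DN replicate 2 (log2 fold change 0.70, adjusted p = 0.076). Pold1 had 16.6 and 16.1 FPKM in Bcl6+, 25.9 and 26.03 FPKM in TIM-3+ and 17.5 and 18.9 FPKM in DN TILs. Pold1, the catalytic subunit of polymerase delta, had a log2 fold change of -0.60 ± 0.11 (adjusted p = 0.000487) in Bcl6+ against TIM-3+, and its Bcl6+ values were below both other groups. Pola2, a subunit of polymerase alpha, had a log2 fold change of -0.47 ± 0.12 (adjusted p = 0.0074), lost without Bcl6+ replicate 1 (log2 fold change -0.35, adjusted p = 0.0594). For Pole, the catalytic subunit of polymerase epsilon, the same comparison gave a log2 fold change of -0.97 ± 0.15 (adjusted p = 0.000154). Its DN values, 3.74 and 3.24 FPKM, were below the Bcl6+ values, 4.41 and 3.83 FPKM, but this difference missed the threshold (0.25 ± 0.15, adjusted p = 0.33). Pole2 had 3.98 and 8.13 FPKM in the TIM-3+ libraries, which differed more than 2-fold from each other; without replicate 1 it was called lower in Bcl6+ (log2 fold change -1.32, adjusted p = 0.0072). In TIM-3+ against DN, the calls of Prim1 and Pold1 were lost without DN replicate 1 (adjusted p = 0.0832 and 0.0634).

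All 4 genes for Okazaki fragments and single-stranded DNA were lower in Bcl6+ than in TIM-3+ TILs, with a median of -1.23. Lig1 had 9.92 and 10.2 FPKM in Bcl6+, 32.4 and 35.2 FPKM in TIM-3+ and 14.9 and 17.4 FPKM in DN TILs. Lig1, the ligase that joins Okazaki fragments, had a log2 fold change of -1.69 ± 0.13 (adjusted p = 1.26e-07) in Bcl6+ against TIM-3+ and -0.67 ± 0.12 (adjusted p = 0.00204) in Bcl6+ against DN. Its groups did not overlap. Rpa2 had 36.96 and 35.6 FPKM in Bcl6+, 92.1 and 96.2 FPKM in TIM-3+ and 42.5 and 44.1 FPKM in DN TILs. Rpa2, the middle subunit of the single-strand binding protein, had a log2 fold change of -1.31 ± 0.09 (adjusted p = 3.32e-08) in Bcl6+ against TIM-3+; all Bcl6+ values were below the DN values, yet that difference missed the threshold (-0.24 ± 0.08, adjusted p = 0.079). Rpa1 had 40.8 and 41.5 FPKM in Bcl6+, 63.3 and 54.1 FPKM in TIM-3+ and 41.2 and 40.7 FPKM in DN TILs. Rpa1, the large subunit, changed by -0.45 ± 0.08 on the log2 scale (adjusted p = 0.000667), with overlapping Bcl6+ and DN values. Fen1 had 1.56 and 1.31 FPKM in Bcl6+, 3.29 and 3.39 FPKM in TIM-3+ and 1.602 and 1.68 FPKM in DN TILs. Fen1, the flap endonuclease, had a log2 fold change of -1.15 ± 0.40 (adjusted p = 0.0361) and had 73 to 172 counts in these libraries; the call was lost without any 1 of the 4 libraries (log2 fold change -1.28 to -1.03, adjusted p 0.057 to 0.113).

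Nucleotide genes gave the class median farthest from 0, -1.42, in Bcl6+ against TIM-3+ TILs, with 5 of 6 lower. Rrm2 had 45.8 and 40.2 FPKM in Bcl6+, 153 and 154 FPKM in TIM-3+ and 56.5 and 62.2 FPKM in DN TILs. Rrm2, the small subunit of ribonucleotide reductase, is the most abundant gene of the class and had a log2 fold change of -1.78 ± 0.09 (adjusted p = 2.17e-09) in Bcl6+ against TIM-3+ and -0.45 ± 0.09 (adjusted p = 0.00258) in Bcl6+ against DN. The 3 groups did not overlap; the call against DN was lost without DN replicate 2 (log2 fold change -0.38, adjusted p = 0.0546). Rrm1 had 19.1 and 19.4 FPKM in Bcl6+, 46.9 and 44.7 FPKM in TIM-3+ and 24.6 and 22.2 FPKM in DN TILs. Rrm1, the large subunit, had a log2 fold change of -1.19 ± 0.07 (adjusted p = 2.36e-08) in Bcl6+ against TIM-3+, with both TIM-3+ libraries above the other 4. Between Bcl6+ and DN cells it had a log2 fold change of -0.27 ± 0.07 (adjusted p = 0.0258), and this call was lost without Bcl6+ replicate 1, Bcl6+ replicate 2 or DN replicate 1 (log2 fold change -0.28 to -0.19, adjusted p 0.0581 to 0.288). Tk1 had 4.905 and 4.54 FPKM in Bcl6+, 16.6 and 18.3 FPKM in TIM-3+ and 5.75 and 5.69 FPKM in DN TILs. Tk1, the thymidine kinase of the salvage pathway, had the largest change of the class, -1.82 ± 0.15 on the log2 scale (adjusted p = 3.93e-07); TIM-3+ values stood far above the rest. Dut had 22.7 and 25.4 FPKM in Bcl6+, 80.4 and 75.5 FPKM in TIM-3+ and 35.6 and 37.02 FPKM in DN TILs. Dut, which hydrolyses dUTP, had a log2 fold change of -1.64 ± 0.11 (adjusted p = 3.84e-08) in Bcl6+ against TIM-3+ and -0.58 ± 0.11 (adjusted p = 0.00188) in Bcl6+ against DN, without overlap. Tyms, the thymidylate synthase, fell by 0.88 in Bcl6+ against TIM-3+; a pseudogene, Tyms-ps, is annotated. Ung had 8.98 and 9.01 FPKM in Bcl6+, 5.95 and 9.398 FPKM in TIM-3+ and 6.96 and 7.22 FPKM in DN TILs. Ung, a DNA repair enzyme that removes uracil, was not called (0.29 ± 0.20, adjusted p = 0.265); the TIM-3+ libraries enclosed both Bcl6+ values, and without TIM-3+ replicate 2 Ung was called higher in Bcl6+ (log2 fold change 0.65, adjusted p = 0.0211).

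The 3 genes for copying chromatin were lower in Bcl6+ than in TIM-3+ TILs and rose in TIM-3+ against DN TILs. Uhrf1 had 20.1 and 22.3 FPKM in Bcl6+, 54.2 and 65.5 FPKM in TIM-3+ and 27.1 and 24.2 FPKM in DN TILs. Uhrf1, which binds half-methylated DNA behind the fork and recruits the methyltransferase Dnmt1, had a log2 fold change of -1.44 ± 0.11 (adjusted p = 2.22e-07) in Bcl6+ against TIM-3+ and 1.18 ± 0.11 (adjusted p = 3.03e-06) in TIM-3+ against DN. Both TIM-3+ libraries stood well above the others. Chaf1b had 5.54 and 8.02 FPKM in Bcl6+, 12.7 and 15.6 FPKM in TIM-3+ and 8.65 and 7.41 FPKM in DN TILs. Chaf1b, a subunit of the histone chaperone CAF-1, changed least (-0.999 ± 0.19, adjusted p = 0.00101), and its Bcl6+ and DN values overlapped; its TIM-3+ against DN call was lost without DN replicate 2 or TIM-3+ replicate 2 (log2 fold change 0.62 to 0.66, adjusted p 0.0696 to 0.108). Chaf1a had 3.49 and 3.997 FPKM in Bcl6+, 8.18 and 8.51 FPKM in TIM-3+ and 4.61 and 3.74 FPKM in DN TILs. Chaf1a, the largest CAF-1 subunit, had a log2 fold change of -1.10 ± 0.16 (adjusted p = 9.82e-05) in Bcl6+ against TIM-3+ and had the highest values in TIM-3+ cells.

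Of the G1/S regulators, 3 of 4 were lower in Bcl6+ than in TIM-3+ TILs. E2f8 had 2.501 and 1.94 FPKM in Bcl6+, 6.94 and 7.85 FPKM in TIM-3+ and 2.34 and 2.68 FPKM in DN TILs. E2f8, a repressor of the E2F family that is itself induced in S phase, had the largest change of the class (-1.68 ± 0.23, adjusted p = 5.37e-05). TIM-3+ values were well above the rest, and Bcl6+ and DN values overlapped. E2f1 had 1.96 and 1.98 FPKM in Bcl6+, 2.903 and 4.55 FPKM in TIM-3+ and 1.87 and 1.903 FPKM in DN TILs. E2f1, an activator of the family, missed the threshold (-0.86 ± 0.36, adjusted p = 0.0754); the TIM-3+ libraries were the 2 highest but differed from each other, and E2f1 was called lower without TIM-3+ replicate 1 (log2 fold change -1.15, adjusted p = 0.0429). Ccne1 had 13.7 and 11.3 FPKM in Bcl6+, 19.6 and 23.9 FPKM in TIM-3+ and 15.05 and 12.3 FPKM in DN TILs. Ccne1, cyclin E1, had a log2 fold change of -0.74 ± 0.18 (adjusted p = 0.00473), the smallest change of the class; its TIM-3+ against DN call was lost without DN replicate 2 or TIM-3+ replicate 2 (log2 fold change 0.48 in both, adjusted p 0.137 to 0.181). Ccne2 had 5.12 and 4.88 FPKM in Bcl6+, 10.7 and 9.86 FPKM in TIM-3+ and 5.46 and 6.09 FPKM in DN TILs. Ccne2, cyclin E2, had a log2 fold change of -0.98 ± 0.20 (adjusted p = 0.0015), with both TIM-3+ libraries highest; its TIM-3+ against DN call was lost without TIM-3+ replicate 1 or DN replicate 1 (log2 fold change 0.71 to 0.73, adjusted p 0.0571 to 0.0884).

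**Figure D2:**
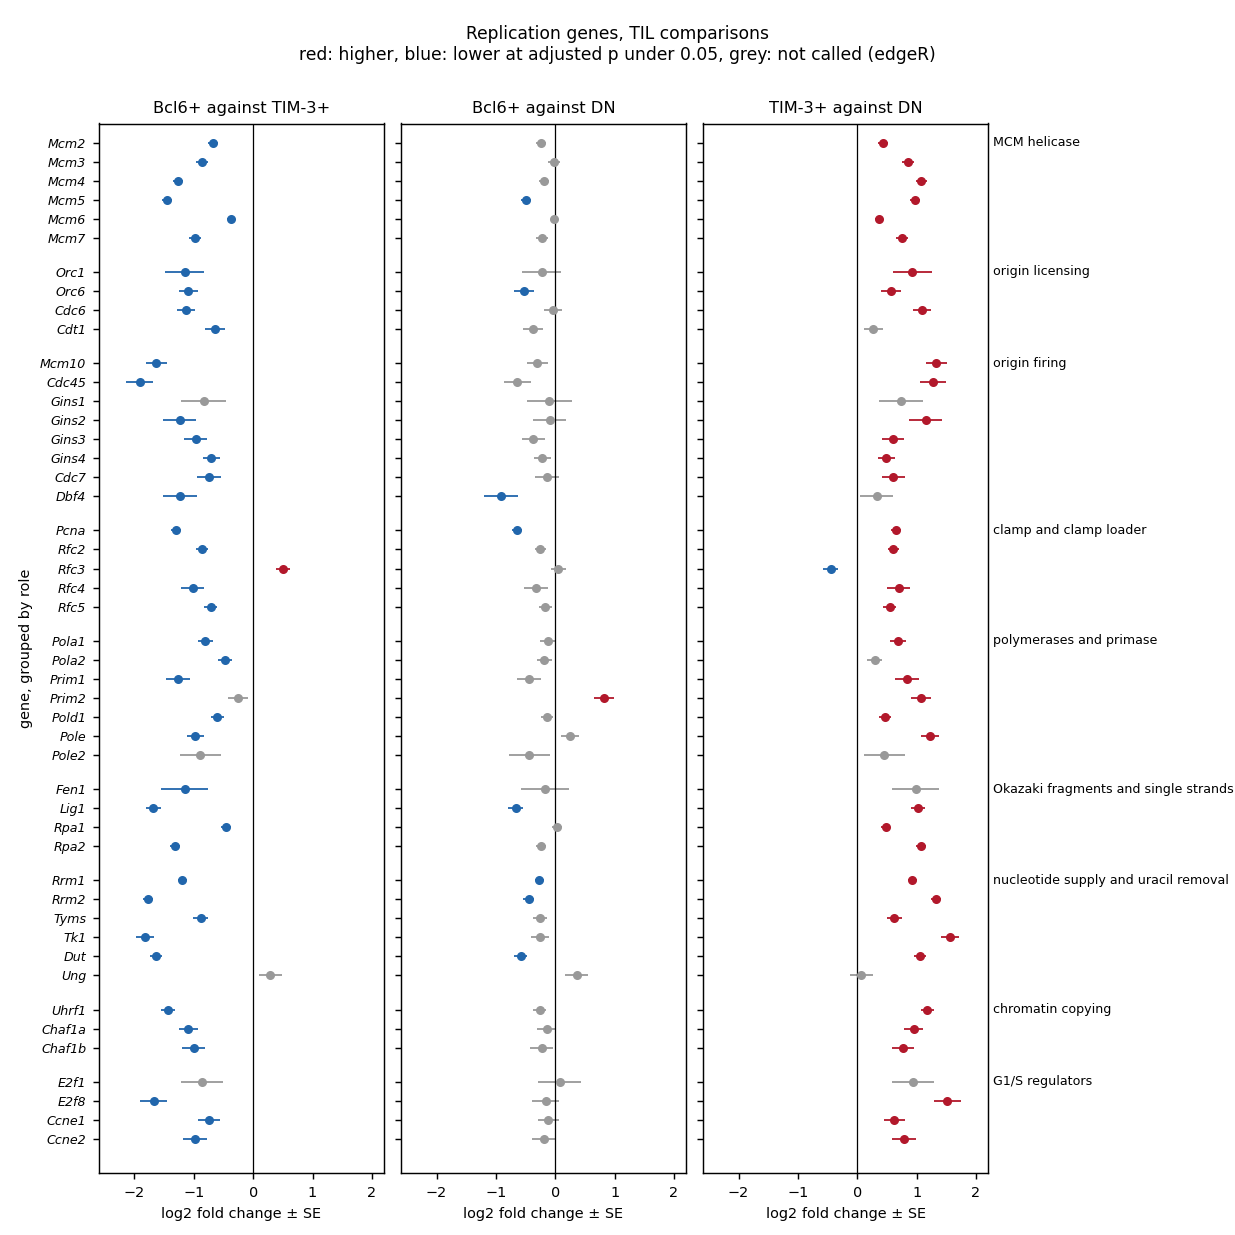
Log2 fold change (points) and its SE (bars) of each replication gene in the 3 TIL comparisons, left to right Bcl6+ against TIM-3+, Bcl6+ against DN and TIM-3+ against DN, on a common axis; red is called higher, blue called lower and grey not called. Bcl6+ against TIM-3+ holds 41 blue points and 1 red one (Rfc3), and Bcl6+ against DN holds 8 blue points and 1 red one (Prim2).

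A later phase of the cell cycle was compared through 26 mitosis genes, a list chosen with earlier results of these data known. All 26 were lower in Bcl6+ than in TIM-3+ TILs (median -2.24), 14 were lower in Bcl6+ against DN with 12 not called (median -0.59), and all 26 were higher in TIM-3+ against DN (median 1.75). Of all genes tested, 19.6% were lower in the first comparison, 7.69% lower in the second and 14.9% higher in the third. The medians of the replication genes in these comparisons were -0.98, -0.23 and 0.77. Ube2c, which helps degrade mitotic proteins, had the largest change (-3.25 ± 0.15, adjusted p = 8.94e-10, Bcl6+ against TIM-3+), followed by Birc5, survivin (-2.83 ± 0.20, adjusted p = 6.58e-08). Per library, the median log2(FPKM + 1) of the replication genes minus that of the mitosis genes was 0.745 and 1.005 in Bcl6+, -0.38 and -0.47 in TIM-3+ and 0.94 and 0.55 in DN TILs. The mitosis median exceeded the replication median in both TIM-3+ libraries and in none of the other 4. It is a description, with no test of the difference between the lists.

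Lists of other genes of replication were compared in the same way. Their counts are to be set beside the 19.6% lower and 19.1% higher of all 9748 genes tested. Of 27 other replisome and origin genes tested in Bcl6+ against TIM-3+ TILs, 11 were lower and 1 higher (median -0.40): Mcm8 (-1.80 ± 0.26, adjusted p = 9.58e-05) and Gmnn (-1.47 ± 0.19, adjusted p = 2.65e-05), which encodes geminin, the inhibitor of Cdt1, changed most, and Rfc1, the large clamp-loader subunit, was higher (0.51 ± 0.13, adjusted p = 0.00642), as Rfc3 was. Of 13 fork protection and checkpoint genes, 6 were lower and 1 higher (median -0.20), with Clspn (-1.91 ± 0.22, adjusted p = 1.12e-05) and the kinase Chek1 (-1.41 ± 0.25, adjusted p = 0.000481) lowest and Cdc25a higher (0.77 ± 0.21, adjusted p = 0.0106). Of 19 other nucleotide synthesis genes, 8 were lower and 1 higher (median -0.23), none at 2-fold; Dck, the deoxycytidine kinase, had a log2 fold change of -0.71 ± 0.11 (adjusted p = 0.000107), and Atic, of purine synthesis, was the 1 higher (0.48 ± 0.16, adjusted p = 0.0253). Of 9 other chromatin copying genes, 8 were lower and 1 higher, the histone chaperones Asf1b (-1.44 ± 0.14, adjusted p = 2.76e-06) and Asf1a (0.69 ± 0.19, adjusted p = 0.0104) moving in opposite directions.

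In OT-I cells with Prdm1 overexpression, no replication gene was called by edgeR without a block for the replicate number. Summed FPKM of the members was 1766 and 1859 in Prdm1-overexpressing cells, against 1835 and 1883 in their control cells, and the groups overlapped. The members' median log2 fold change was 0.03, against 0.02 over all 9947 genes tested, and 24 were positive and 23 negative. With edgeR, 1.36% of all genes were called, 1.16% higher and 0.201% lower; 8 members and 19.2% of all genes had an unadjusted p under 0.05, and DESeq2 called 1 member, Pold1, lower. With a block for the replicate number, edgeR called 6 members: Prim2, Tyms, Cdc7, Rpa1 and Rrm2 higher and Pold1 lower. It called 1659 of all 9947 genes with that block, against 135 without it. The labels do not say that the numbers pair libraries, so the calls given for this experiment are those without the block. There the median SE over the members was 0.19 on the log2 scale, which sets the size of change that could be seen in single genes. Cdc7 had 20.3 and 22.2 FPKM in Prdm1-overexpressing cells, against 12.8 and 14.3 FPKM in their control cells. It had the smallest adjusted p of the members (0.75 ± 0.18, adjusted p = 0.0943), and its groups did not overlap. Pold1 had 15.98 and 19.3 FPKM in Prdm1-overexpressing cells, against 35.3 and 27.9 FPKM in their control cells, the lowest log2 fold change of the members (-0.75 ± 0.19, adjusted p = 0.105), also without overlap. Fold changes here varied with base composition too: the log2 fold change fell with the GC content of the transcript over the members (Spearman's rho = -0.403, n = 47 genes of the same 4 libraries) and over all 9846 genes with a GC value (-0.271). Pold1 has a GC content of 61.0%; with trends of length and GC content removed from each library it was at -0.41 (adjusted p = 0.25) and no longer the lowest, behind Rfc3 at -0.43 (adjusted p = 0.372) and Dut at -0.41 (adjusted p = 0.476).

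The 2 Prdm1-overexpressing libraries differed from each other in more members than in any other group: 9 members differed over 1.5-fold between them, against 0 to 4 in the other 6 groups. Pcna had 144 and 85.6 FPKM in Prdm1-overexpressing cells, against 148 and 139 FPKM in their control cells. Only replicate 2 was below the controls, and without replicate 1 Pcna was called lower (log2 fold change -0.69, adjusted p = 0.0391). Rfc3 had 20.9 and 11.8 FPKM in Prdm1-overexpressing cells, against 21.6 and 20.04 FPKM in their control cells, and again only replicate 2 was below both controls. Mcm6 had 177 and 228 FPKM in Prdm1-overexpressing cells, against 205 and 240.2 FPKM in their control cells, and Rrm2 had 184 and 214 FPKM in Prdm1-overexpressing cells, against 153 and 168 FPKM in their control cells. Rrm2 was above its controls in both libraries (0.40 ± 0.15, adjusted p = 0.214), without a call, and Mcm6 values overlapped. Tyms had 33.7 and 31.1 FPKM in Prdm1-overexpressing cells, against 24.8 and 25.1 FPKM in their control cells, and Prim2 had 14.3 and 16.02 FPKM in Prdm1-overexpressing cells, against 10.1 and 12.1 FPKM in their control cells, both without overlap and neither called (adjusted p = 0.173 and 0.179). Lig1 had 33.1 and 43.7 FPKM in Prdm1-overexpressing cells, against 39.4 and 40.97 FPKM in their control cells; Uhrf1 had 36.5 and 44.6 FPKM in Prdm1-overexpressing cells, against 48.1 and 46.8 FPKM in their control cells; and Mcm5 had 72.1 and 92.9 FPKM in Prdm1-overexpressing cells, against 98.2 and 107 FPKM in their control cells. None of these was called (log2 fold changes 0.03 ± 0.17, -0.13 ± 0.16 and -0.22 ± 0.16). Of the lists of other genes, mitosis genes included, edgeR called 2 genes, both higher: Mms22l (1.33 ± 0.24, adjusted p = 0.0483), a fork repair factor, and Rbl1 (1.04 ± 0.17, adjusted p = 0.0445), a pocket protein that binds E2F. Macrophage and monocyte markers summed to 169 and 92.4 FPKM in Prdm1-overexpressing cells, against 326 and 286 FPKM in their control cells; their part in these values was not tested.

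In OT-I cells with Bcl6 overexpression, part of the set was lower than in their control cells. Summed member FPKM was 1557 and 1492 in Bcl6-overexpressing cells, against 2009 and 1923 in their control cells, without overlap. In the edgeR test 21 members were lower and 4 higher, with 22 not called; of all 9669 genes tested, 48.8% were called, 23.4% lower and 25.4% higher. The members' median log2 fold change was -0.42, against 0.00 over all genes, and 8 members differed at least 2-fold. Fold changes in this comparison varied with base composition and, over all genes, with gene length. The log2 fold change fell with length over all 9553 genes with a GC value (Spearman's rho = -0.253), but not over the members (-0.002). Across the members, the log2 fold change rose with the GC content of the transcript (Spearman's rho = 0.503, n = 47 genes of the same 4 libraries), and it did so over all 9553 genes with a GC value (0.488). The 2 Bcl6-overexpressing libraries also differed from each other along GC content in the members (rho = -0.795 for replicate 2 over replicate 1). With trends of gene length and GC content removed from each library, 25 members were lower and 2 higher (Dut and Gins2). Values of members with the trends removed are therefore given beside the first ones. Libraries of this experiment also differed in markers of other cells, in both directions. The 6 macrophage and monocyte markers summed to 437 and 377 FPKM in Bcl6-overexpressing cells, against 90.2 and 86.3 FPKM in their control cells, 3 measured neutrophil markers to 41.2 and 42.3 FPKM in Bcl6-overexpressing cells, against 1.44 and 0.267 FPKM in their control cells, and 5 erythroid markers to 26.8 and 18.7 FPKM in Bcl6-overexpressing cells, against 0.385 and 0.456 FPKM in their control cells, with Hba-a1, Hba-a2, Hbb-bs and Hbb-bt at 0 in both control libraries. Lower were Col1a1, listed for stroma (log2 fold change -4.97 ± 0.44, adjusted p = 1.02e-08), Xcr1 for dendritic cells (log2 fold change -1.73 ± 0.33, adjusted p = 0.000228), Cd40lg for CD4 and regulatory T cells (log2 fold change -1.09 ± 0.22, adjusted p = 0.000396) and Cd1d1 for thymocytes or the lymphoma (log2 fold change -1.29 ± 0.22, adjusted p = 6.92e-05). Xcr1, Cd40lg and Cd1d1 were each the 1 marker tested of 5, 3 and 5 listed, so they do not speak for their cell types. Pecam1, the other stromal and endothelial marker tested, was not called (log2 fold change -0.29 ± 0.18, adjusted p = 0.209). The 3 measured markers of thymocytes or the lymphoma summed to 7.77 and 7.83 FPKM in Bcl6-overexpressing cells, against 19.8 and 17.4 FPKM in their control cells. The 7 CD8+ T cell markers summed to 2855 and 2556 FPKM in Bcl6-overexpressing cells, against 2149 and 1790.0 FPKM in their control cells; 3 were higher, Cd3d most (log2 fold change 2.21 ± 0.19, adjusted p = 4.04e-09), and Lck was lower (log2 fold change -0.46 ± 0.17, adjusted p = 0.0326). The part of these markers in the results was not tested. TPM scaling lowered the median of all genes to -0.34 and turned the calls over all genes to 1708 higher and 3842 lower, from 2459 and 2261; with it, 33 members were lower and 3 higher.

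**Figure D3:**
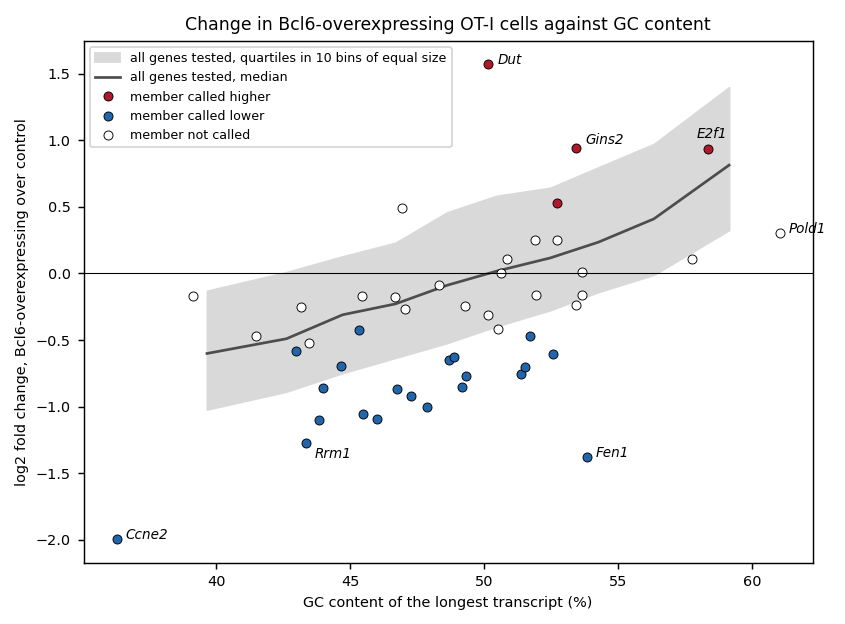
Log2 fold change of each replication gene in Bcl6-overexpressing over control OT-I cells (y axis) against the GC content of its longest transcript in percent (x axis); the line and band are the median and quartiles of all genes tested in 10 bins of equal size. The bin medians run from -0.60 at the lowest to 0.81 at the highest GC content. Dut and Gins2 lie above the band, and Rrm1, Rrm2, Fen1, Mcm4 and Cdc7 are among the members below it. Ccne2, at a GC content of 36.3%, lies to the left of the band, which starts at 39.66%.

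Ribonucleotide reductase and cyclin E2 had the lowest p-values among the genes that fell. Rrm1 had 18.02 and 22.03 FPKM in Bcl6-overexpressing cells, against 46.5 and 44.6 FPKM in their control cells. It changed by -1.27 ± 0.17 on the log2 scale (adjusted p = 4.01e-06), or -0.96 (adjusted p = 2.78e-07) with the trends removed. Rrm2 had 80.3 and 91.04 FPKM in Bcl6-overexpressing cells, against 174 and 171 FPKM in their control cells. It changed by -1.10 ± 0.17 on the log2 scale (adjusted p = 1.88e-05), or -0.90 (adjusted p = 7.77e-07) with the trends removed. Both subunits were lower in each overexpressing library than in either control. Ccne2 had 2.16 and 5.48 FPKM in Bcl6-overexpressing cells, against 14.95 and 13.7 FPKM in their control cells. Its log2 fold change of -1.99 ± 0.30 (adjusted p = 1.97e-05) was the largest of the members, and -1.29 (adjusted p = 2.09e-05) remained with the trends removed, although the overexpressing libraries differed 2.53-fold from each other. Ccne2 shares up to 474 exon bases with Ints8 on the other strand, whose log2 fold change was -0.59 in the same comparison. Cyclin E1 was not called: Ccne1 had 39.7 and 34.9 FPKM in Bcl6-overexpressing cells, against 31.05 and 27.8 FPKM in their control cells (0.26 ± 0.18, adjusted p = 0.257; 0.04, adjusted p = 0.845 with the trends removed).

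Of the MCM subunits, 4 of 6 were lower (median -0.53), and 5 of 6 with the trends removed. Mcm4 had 53.3 and 58.5 FPKM in Bcl6-overexpressing cells, against 114 and 105 FPKM in their control cells. It changed by -1.06 ± 0.17 on the log2 scale (adjusted p = 2.81e-05), or -0.74 (adjusted p = 1.27e-05) with the trends removed. Mcm6 had 131 and 128 FPKM in Bcl6-overexpressing cells, against 234 and 225 FPKM in their control cells. Mcm6 had a log2 fold change of -0.92 ± 0.17 (adjusted p = 0.000131), or -0.67 (adjusted p = 3.44e-05) with the trends removed. Neither gene's groups overlapped. Mcm5 had 122 and 93.6 FPKM in Bcl6-overexpressing cells, against 109 and 117 FPKM in their control cells. Mcm5, the subunit with the largest change between Bcl6+ and TIM-3+ TILs, was not called here (-0.16 ± 0.17, adjusted p = 0.469; -0.20, adjusted p = 0.175 with the trends removed), and its groups overlapped; without Bcl6-overexpressing replicate 1 it was called lower (log2 fold change -0.36, adjusted p = 0.0329). The call of Mcm2 was lost without any 1 library but Bcl6-overexpressing replicate 1 (log2 fold change -0.56 to -0.30, adjusted p 0.0893 to 0.285), and that of Mcm3 without either control library (log2 fold change -0.63 to -0.59, adjusted p 0.0543 to 0.0753); with the trends removed they were at -0.56 (adjusted p = 0.000614) and -0.69 (adjusted p = 2.43e-05).

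Licensing and firing genes were mixed. Cdc6 had 12.5 and 14.97 FPKM in Bcl6-overexpressing cells, against 25.8 and 20.98 FPKM in their control cells. It changed by -0.85 ± 0.19 on the log2 scale (adjusted p = 0.000829), or -0.73 (adjusted p = 0.000168) with the trends removed, without overlap. Orc1 had 4.36 and 4.496 FPKM in Bcl6-overexpressing cells, against 7.27 and 7.92 FPKM in their control cells (-0.87 ± 0.24, adjusted p = 0.00599; -0.63, adjusted p = 0.0183 with the trends removed); the call was lost without control replicate 2 (log2 fold change -0.80, adjusted p = 0.0622). Orc6 had 26.2 and 27.1 FPKM in Bcl6-overexpressing cells, against 30.98 and 25.4 FPKM in their control cells and was not called (-0.17 ± 0.19, adjusted p = 0.489; 0.01, adjusted p = 0.973 with the trends removed), its groups overlapping. Cdt1, Gins4 and Pold1 changed sign when the trends were removed: their log2 fold changes were 0.11, 0.11 and 0.30, not called, but -0.44 (adjusted p = 0.00757), -0.76 (adjusted p = 0.000101) and -0.61 (adjusted p = 0.000195) with the trends removed, and Pold1 was called higher without Bcl6-overexpressing replicate 2 (log2 fold change 0.40, adjusted p = 0.0337). Cdc7 had 10.1 and 10.4 FPKM in Bcl6-overexpressing cells, against 22.5 and 18.9 FPKM in their control cells. The kinase had a log2 fold change of -1.10 ± 0.19 (adjusted p = 8.54e-05), or -0.66 (adjusted p = 0.000731) with the trends removed, and both overexpressing values were below the controls. Cdc45 had 16.4 and 18.2 FPKM in Bcl6-overexpressing cells, against 19.2 and 19.4 FPKM in their control cells; the member with the largest TIL change was not called here (-0.25 ± 0.19, adjusted p = 0.288; -0.16, adjusted p = 0.381 with the trends removed). Gins2 had 11.95 and 9.03 FPKM in Bcl6-overexpressing cells, against 6.08 and 4.19 FPKM in their control cells. It was higher (0.94 ± 0.24, adjusted p = 0.00301), also with the trends removed (0.79, adjusted p = 0.00235), and the call was lost without control replicate 2 (log2 fold change 0.70, adjusted p = 0.083). Gins2 shares up to 2758 exon bases with Gse1 on the other strand, whose log2 fold change was 1.04 in the same comparison; whether counting used strand is not given in the sources used here, so reads of the 2 genes cannot be told apart. Gins3, another GINS subunit, was lower (-1.01 ± 0.25, adjusted p = 0.00213; -0.94, adjusted p = 0.000519 with the trends removed).

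Dut stood apart from the other nucleotide genes. It had 62.2 and 58.6 FPKM in Bcl6-overexpressing cells, against 21.8 and 16.5 FPKM in their control cells. The log2 fold change was 1.57 ± 0.19 (adjusted p = 1.12e-06), or 1.43 (adjusted p = 1e-08) with the trends removed, and both overexpressing libraries were far above both controls. Dut, Gins2 and Chaf1a are the 3 members called higher here and lower in Bcl6+ against TIM-3+ TILs. Tk1 had 21.2 and 17.7 FPKM in Bcl6-overexpressing cells, against 16.5 and 14.2 FPKM in their control cells and was not called (0.25 ± 0.19, adjusted p = 0.267; 0.20, adjusted p = 0.253 with the trends removed). Ung had 12.7 and 13.02 FPKM in Bcl6-overexpressing cells, against 13.03 and 12.8 FPKM in their control cells, with overlapping groups and no call (-0.09 ± 0.18, adjusted p = 0.715; 0.09, adjusted p = 0.633 with the trends removed). Dut lies at chr2:125247190-125258608 (mm10, GENCODE M21) and overlaps no other counted gene.

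Fork genes fell in part. Fen1 had 2.83 and 2.72 FPKM in Bcl6-overexpressing cells, against 6.302 and 7.31 FPKM in their control cells. It changed by -1.38 ± 0.30 on the log2 scale (adjusted p = 0.000872), or -1.75 (adjusted p = 2.1e-05) with the trends removed. Both overexpressing libraries were below the controls; Fen1 shares up to 75 exon bases with Tmem258 on the other strand, whose log2 fold change was 2.85. Rpa2 had 56.8 and 52.6 FPKM in Bcl6-overexpressing cells, against 89.6 and 77.7 FPKM in their control cells. It changed by -0.70 ± 0.17 on the log2 scale (adjusted p = 0.00183), or -0.79 (adjusted p = 7.82e-06) with the trends removed, without overlap, and the call was lost without control replicate 1 (log2 fold change -0.61, adjusted p = 0.0656). Rpa1 had 45.1 and 45.1 FPKM in Bcl6-overexpressing cells, against 64.4 and 66.8 FPKM in their control cells (-0.63 ± 0.16, adjusted p = 0.00344; -0.49, adjusted p = 0.00114 with the trends removed), a call lost without control replicate 2 (log2 fold change -0.60, adjusted p = 0.0667). Prim1 had 21.3 and 23.9 FPKM in Bcl6-overexpressing cells, against 42.4 and 35.01 FPKM in their control cells. It changed by -0.86 ± 0.18 on the log2 scale (adjusted p = 0.000531), or -0.44 (adjusted p = 0.00732) with the trends removed. Prim2 had 9.13 and 9.53 FPKM in Bcl6-overexpressing cells, against 13.6 and 12.7 FPKM in their control cells (-0.58 ± 0.19, adjusted p = 0.0138), but -0.11 (adjusted p = 0.549) with the trends removed, and the call was lost without either control library (log2 fold change -0.63 to -0.54, adjusted p 0.0666 to 0.129). Pcna had 98.2 and 112 FPKM in Bcl6-overexpressing cells, against 143 and 123 FPKM in their control cells. Its change, -0.42 ± 0.17 on the log2 scale (adjusted p = 0.0431), passed narrowly; with the trends removed it was -0.28 (adjusted p = 0.0505), and 3 of the 4 fits that leave out 1 library did not call it (log2 fold change -0.53 to -0.32, adjusted p 0.0617 to 0.372). Lig1 had 50.8 and 42.1 FPKM in Bcl6-overexpressing cells, against 40.04 and 46.6 FPKM in their control cells, with overlapping groups and no call (0.01 ± 0.17, adjusted p = 0.96; -0.15, adjusted p = 0.34 with the trends removed). Rfc3 had 17.1 and 18.8 FPKM in Bcl6-overexpressing cells, against 23.1 and 17.3 FPKM in their control cells and was not called (-0.25 ± 0.20, adjusted p = 0.299); its sign turned with the trends removed, to 0.21 (adjusted p = 0.258), again without a call.

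The remaining members called higher were E2f1 and Chaf1a. E2f1 had 11.2 and 9.04 FPKM in Bcl6-overexpressing cells, against 5.0004 and 4.93 FPKM in their control cells. It changed by 0.94 ± 0.24 on the log2 scale (adjusted p = 0.00297), but 0.32 (adjusted p = 0.197) with the trends removed. Chaf1a had 7.81 and 7.52 FPKM in Bcl6-overexpressing cells, against 4.49 and 5.49 FPKM in their control cells. It changed by 0.53 ± 0.20 on the log2 scale (adjusted p = 0.0304), but 0.30 (adjusted p = 0.0969) with the trends removed, and the call was also lost without either control library or Bcl6-overexpressing replicate 1 (log2 fold change 0.38 to 0.68, adjusted p 0.0503 to 0.325). For both genes each overexpressing library was above both controls. Chaf1a shares up to 2542 exon bases with Ubxn6 on the other strand, whose log2 fold change was -0.02. Chaf1b, its partner, had 13.8 and 13.4 FPKM in Bcl6-overexpressing cells, against 21.3 and 22.5 FPKM in their control cells and was lower (-0.77 ± 0.18, adjusted p = 0.00146; -0.65, adjusted p = 0.00034 with the trends removed). Uhrf1 had 61.7 and 49.2 FPKM in Bcl6-overexpressing cells, against 55.5 and 61.5 FPKM in their control cells (-0.16 ± 0.17, adjusted p = 0.451; -0.33, adjusted p = 0.0286 with the trends removed), its groups overlapping. E2f8 had 4.85 and 5.76 FPKM in Bcl6-overexpressing cells, against 5.88 and 6.56 FPKM in their control cells and was not called (-0.32 ± 0.22, adjusted p = 0.25; -0.25, adjusted p = 0.267 with the trends removed).

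**Figure D4:**
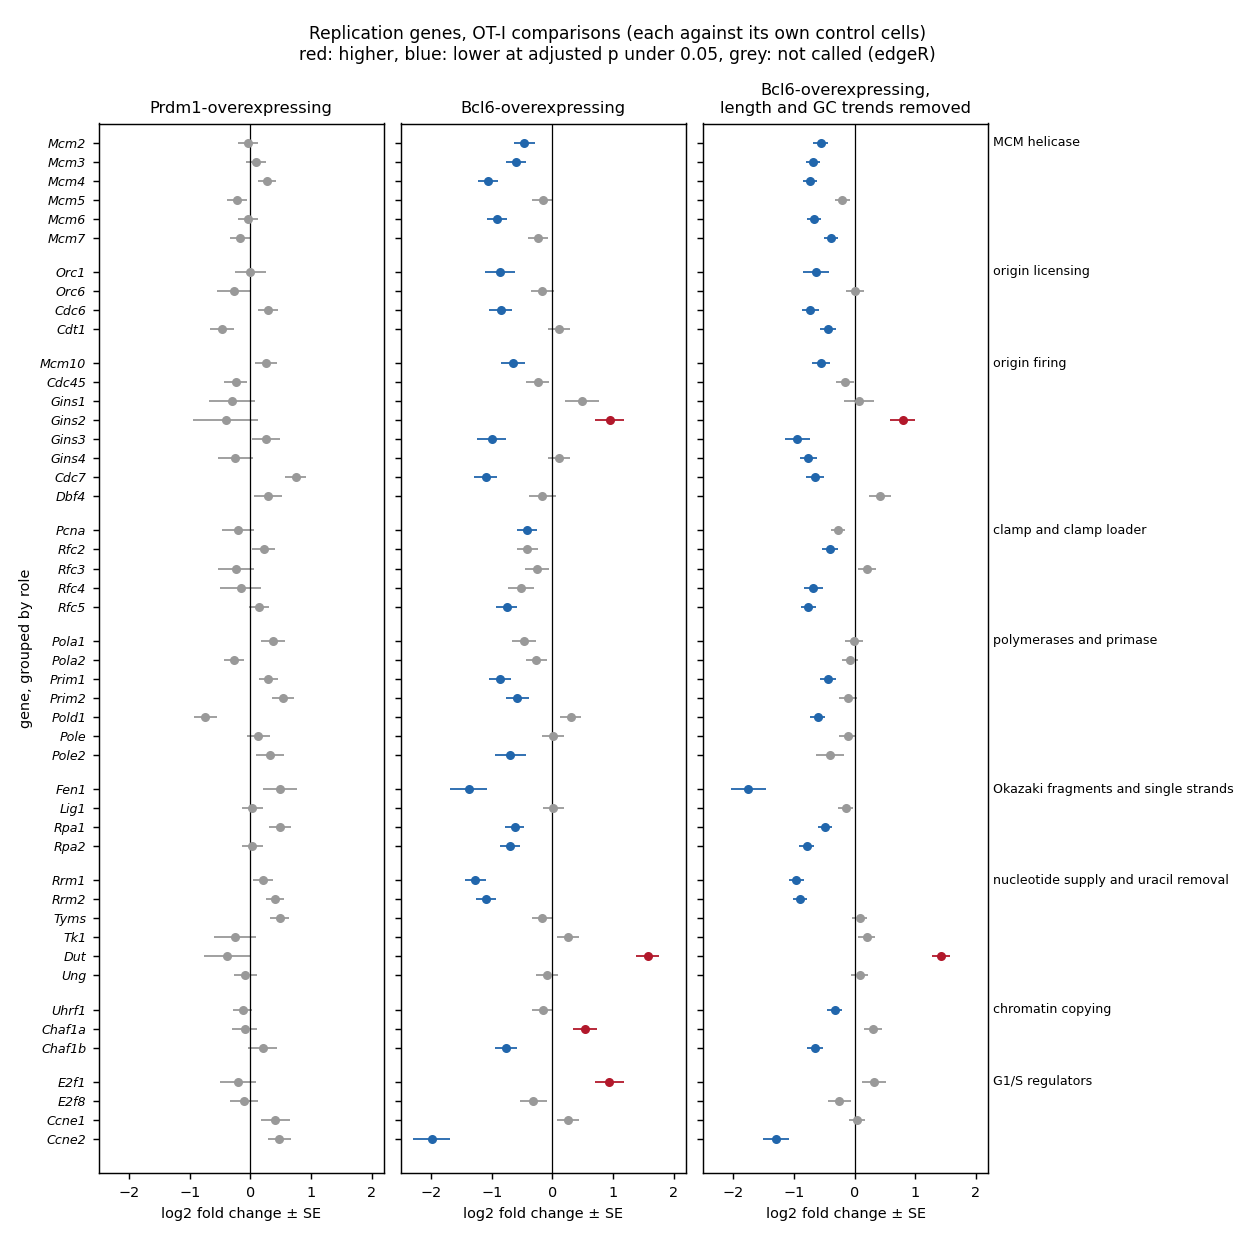
Log2 fold change (points) and its SE (bars) of each replication gene in Prdm1-overexpressing against control OT-I cells (left), Bcl6-overexpressing against control OT-I cells (middle) and the Bcl6 comparison with length and GC trends removed (right); red is called higher, blue called lower and grey not called. The left panel holds no call, the middle one 21 lower and 4 higher, and the right one 25 lower and 2 higher.

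Mitosis genes in Bcl6-overexpressing against control cells were lower in 18 of 26 and higher in 2 (median -0.74; 16 lower and 2 higher with the trends removed); Kif11, a spindle motor, had a log2 fold change of -1.47 ± 0.17 (adjusted p = 6.25e-07), and Ube2c (1.28 ± 0.23, adjusted p = 0.00012) and Birc5 (0.88 ± 0.19, adjusted p = 0.000848) were the 2 higher. Per library, the replication median minus the mitosis median was 0.72 and 0.56 in Bcl6-overexpressing cells, against 0.14 and 0.06 in their control cells, on log2(FPKM + 1). Counts of these mitosis genes and of the lists that follow are to be set beside the 23.4% lower and 25.4% higher of all genes. Shares near these are not a result about a list. Of 28 other replisome and origin genes, 9 were lower and 5 higher. Dscc1, of an alternative clamp loader, had a log2 fold change of -1.18 ± 0.31 (adjusted p = 0.00353). Orc5 and, named after their values were seen, Orc2, Orc3 and Orc4 encode the remaining subunits of the origin recognition complex. Orc2 to Orc5 were all lower (log2 fold changes -0.62, -1.05, -1.08 and -1.10, given here without SE). Rnaseh2c (3.48 ± 0.27, adjusted p = 1.13e-09), Rpa3 (2.55 ± 0.32, adjusted p = 1.58e-06) and Pold4 (1.76 ± 0.27, adjusted p = 1.81e-05), small subunits of RNase H2, of the single-strand binding protein and of polymerase delta, were higher. Among 19 other nucleotide synthesis genes, 6 were lower and 5 higher, with Dctpp1, which removes dCTP and its derivatives, at 3.96 ± 0.26 on the log2 scale (adjusted p = 7.81e-11). Of 9 other chromatin copying genes, 4 were lower, Slbp, the binder of histone mRNA, most (-1.62 ± 0.19, adjusted p = 4.85e-07), and Asf1a was higher (1.14 ± 0.28, adjusted p = 0.00218). With the trends removed the replisome, nucleotide and chromatin lists had 8 lower and 5 higher, 5 lower and 4 higher, and 4 lower and 3 higher. For the single genes named from the mitosis and other lists, values with the trends removed are not given. Over all genes the log2 fold change in this comparison fell with gene length and rose with GC content. The part of these trends in the values of the named genes was not tested.

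**Figure D5:**
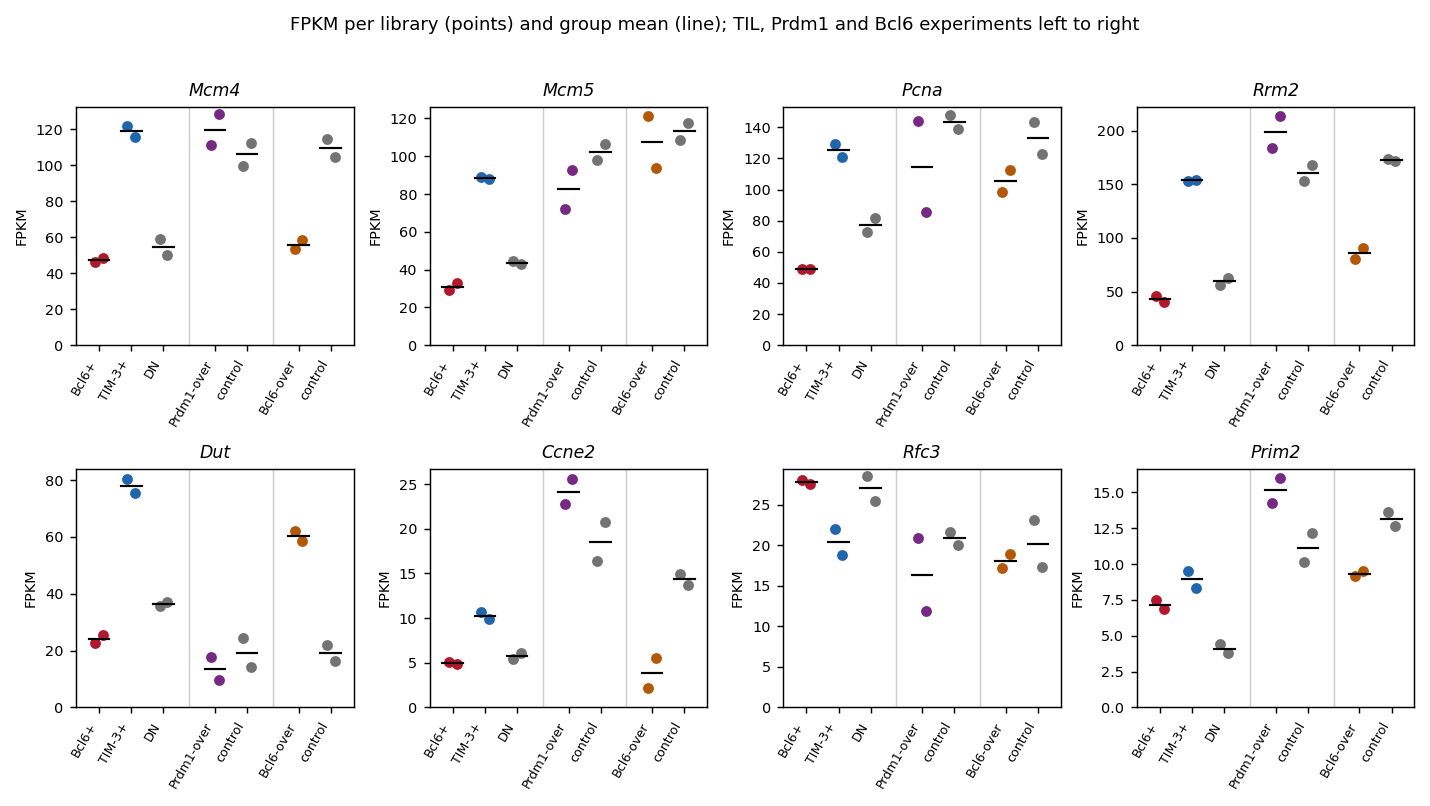
FPKM of 8 replication genes in each of the 14 libraries (points) with the group mean (line); within a panel, the TIL groups, the Prdm1 experiment and the Bcl6 experiment stand left to right, and levels are comparable only within an experiment. Among TILs, Mcm4, Mcm5, Pcna, Rrm2, Dut and Ccne2 are highest in TIM-3+, Rfc3 is lowest in TIM-3+ and Prim2 is lowest in DN cells, and Dut is the 1 gene shown that is higher in Bcl6-overexpressing cells than in their control cells.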

How the data were processed

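CD8+ T cell RNA from E.G7 tumors was sequenced in 14 libraries, in 7 groups of 2, and reads were aligned to mm10, per the submitters' processing notes. These notes name Bowtie2, featureCounts and Subread for the TIL libraries and HISAT2, featureCounts and RSEM for the OT-I libraries, with edgeR and DESeq2. For each gene the authors deposited its raw count and its FPKM, as the columns are named per the file headers; in the TIL and Bcl6 tables the smallest summed count of a listed gene is 20. Whether strand was used in counting is not given in the sources used here.

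Each experiment was fitted by itself: counts of genes that reached 1 FPKM on average, TMM scaling, edgeR 4.0.16 quasi-likelihood tests in R 4.3.3, and Benjamini-Hochberg adjusted p under 0.05 over all genes tested; the 3 TIL groups shared 1 fit. The test was also run on simulated counts whose spread between libraries was near that of the TILs (biological coefficient of variation 0.15). The Prdm1 experiment had a wider spread (0.23), so the simulation does not show what could be called there. All FPKM values printed are the authors' deposited values; log2 fold changes and their SE come from the counts. Alternatives were RLE size factors, library totals, TPM scaling, DESeq2 1.42.0, other filters, limma 3.58.1 on log2(FPKM + 1) and log2(FPKM + 0.1), a replicate block, fits of 2 groups, and fits without each library. Removal of smooth trends of gene length and GC content from each library was added after seeing the data. Replicates of every group differed by more than counting noise and were kept as 2 libraries.

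The members and gene lists were chosen with earlier results of these data known. Values in every library are given for the most abundant member of each role, those with the largest and smallest change in Bcl6+ against TIM-3+ TILs, those called against the direction of most, and the 10 members with the smallest p in the OT-I comparisons. Gene positions are from GENCODE M21; promoters are from RefSeq, and 8 members had none in the table used.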

Additional observations from a re-analysis of the deposited data

How the results depend on the processing

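With 2 libraries per group, library variation limits the results, and counting error adds to it in members with few counts. Counts ran from 73 to 24007 per member and library. The SE of members in Bcl6+ against TIM-3+ TILs ran from 0.06 to 0.40 on the log2 scale. Over the alternatives, 3398 values of members were recomputed. Of these, 3198 were called in both fits with the same direction or in neither, 130 lost a call and 67 gained one. The other 3 were called with the sign reversed: with length and GC trends removed, Pold1 (-0.61), Gins4 (-0.76) and Cdt1 (-0.44) in Bcl6-overexpressing against control cells, none of which was called at first. In all, the sign changed in 105 values, and 0 of these were called in the main fit. The number of members called in Prdm1-overexpressing against control cells, 0 in the edgeR test, was 1 with DESeq2, 6 with the replicate block (Prim2, Tyms, Cdc7, Rpa1 and Rrm2 higher, Pold1 lower) and 0 to 1 on leaving out 1 library; the 1 came without Prdm1-overexpressing replicate 1, and the cause was not tested. Over all genes that comparison had 135 calls with edgeR, 586 with DESeq2 and 1659 with the block. Leaving out 1 library gave 38 to 42 members called in Bcl6+ against TIM-3+, 6 to 8 in Bcl6+ against DN, 30 to 33 in TIM-3+ against DN and 17 to 27 in Bcl6-overexpressing against control cells, where the lone library of a group is assumed to vary like the others. Same-numbered libraries correlated by 0.022, -0.011 and 0.036 in their deviations in the TILs, 0.375 in the libraries of the Prdm1 experiment and -0.061 in those of the Bcl6 experiment, and the labels do not say that the numbers pair them; the block gave 42, 7, 39 and 25 members called in the other 4 comparisons. TPM scaling moved the median of all genes to 0.28 in Bcl6+ against TIM-3+, -0.20 in TIM-3+ against DN and -0.34 in Bcl6-overexpressing against control cells; members called in TIM-3+ against DN were then 30 higher and 1 lower, where all genes went to 816 higher and 2370 lower, against 1454 and 1291.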

Other observations

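Genes that regulate the step into S phase were also followed, in a list of E2F, pocket protein and Cdk genes chosen with earlier results of these data known. Of 20 tested in Bcl6+ against TIM-3+ TILs, 11 were lower and 3 higher (median -0.41), where 19.6% of all genes were lower and 19.1% higher; log2 fold changes stand in brackets ± SE. E2f7, a repressor related to E2f8, and Ccna2, cyclin A2, changed most: E2f7 had 0.444 and 0.827 FPKM in Bcl6+, 6.03 and 4.47 FPKM in TIM-3+ and 1.23 and 1.59 FPKM in DN TILs (-2.98 ± 0.31, adjusted p = 3.53e-06, Bcl6+ against TIM-3+), and Ccna2 had 7.49 and 6.597 FPKM in Bcl6+, 59.8 and 54.7 FPKM in TIM-3+ and 13.3 and 10.8 FPKM in DN TILs (-2.96 ± 0.14, adjusted p = 1.02e-09). The 3 higher in Bcl6+ were Tfdp2, a partner of E2F (0.65 ± 0.15, adjusted p = 0.00266), Cdkn1b, the Cdk inhibitor p27 (0.59 ± 0.13, adjusted p = 0.00278), and Cdk6 (0.30 ± 0.05, adjusted p = 0.000549). Against DN cells, 1 was higher in Bcl6+, the pocket protein Rbl2 (0.72 ± 0.07, adjusted p = 4.8e-06), and 5 were lower, E2f7 most (-1.14 ± 0.30, adjusted p = 0.0203). Of all genes tested against DN cells, 6.49% were higher and 7.69% lower.

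Of 21 genes of this list tested in Bcl6-overexpressing against control OT-I cells, 4 were higher and 5 lower, where 25.4% of all 9669 genes tested were higher and 23.4% lower; these shares are near those of all genes and are not a result about the list. Of the 4 Cdk inhibitors in the list, 2 were called and both were higher: Cdkn1b had 8.11 and 10.4 FPKM in Bcl6-overexpressing cells, against 2.15 and 2.599 FPKM in their control cells (1.87 ± 0.25, adjusted p = 3.06e-06), and Cdkn1a, which encodes p21, had 95.3 and 77.9 FPKM in Bcl6-overexpressing cells, against 34.98 and 34.1 FPKM in their control cells (1.24 ± 0.17, adjusted p = 6.26e-06). With length and GC trends removed the list again had 4 higher and 5 lower. The fork protection and checkpoint list had 3 of 13 lower and none higher in this comparison (median -0.40), a share near that of all genes, in a list in which edgeR called 1 higher and 6 lower in Bcl6+ against TIM-3+ TILs.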
